A study of Macaca mulatta with 12 samples.

Results

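The HOX cluster genes measured on a rhesus macaque expression array were examined in skin fibroblasts and in embryonic stem (ES) cells. Members were the genes of the HOXA, HOXB, HOXC and HOXD clusters that had at least 1 probe set annotated with exactly 1 gene symbol, and this membership used no expression value. This gave 26 genes with 44 probe sets, of 12993 named genes and 52766 probe sets in all, and where a gene had several probe sets, the one brightest on average across the 12 arrays stood for it. That choice of probe set did use the expression values, those of fibroblasts included. The macaque gene table used for names listed 39 genes in the 4 clusters, so 13 HOX genes were not analysed here. The members comprised 9 HOXA, 7 HOXB, 4 HOXC and 6 HOXD genes.

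Each group had 3 arrays, lettered A to C. The fibroblasts were cultured in serum after collagenase isolation from the back skin of 1 adult male monkey aged 9 years. The 3 ES groups were each 1 female line grown on mouse embryonic fibroblast feeders, with RNA taken from colonies picked for their undifferentiated look at passages 10 to 21. rPESC-2 is a heterozygous parthenogenetic line (from an egg activated without sperm). ORMES-9 is called a homozygous parthenogenetic line in the series design and sample descriptions, although its source field names an IVF blastocyst. ORMES-22, from an IVF embryo with both parents, was the line both of these were compared with. ORMES-22 arrays A, B and C were at passages 18, 21 and 19. Those of rPESC-2 were at 16, 10 and 16, and those of ORMES-9 at 13, 14 and 16. All ORMES-22 arrays were later in passage than the other ES arrays, so line and passage cannot be told apart in comparisons with ORMES-22. Each group is thus 1 donor or 1 line, p-values measure the spread between cultures and arrays only, and sex differs along with cell type between fibroblasts and ES cells.

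HOX proteins are homeodomain transcription factors that give cells of the embryo their position along the head-to-tail axis and in the limbs. Within a cluster the genes lie in the order of their paralogue number, low numbers act towards the head and high numbers towards the tail, and genes of different clusters with the same number descend from 1 ancestral gene. In undifferentiated ES cells of mouse and human the clusters are known to be held silent under Polycomb-deposited histone marks, and cultured adult human fibroblasts are known to retain a HOX expression pattern that follows the body site they came from.

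The labelled cell types were checked against their markers. Of 15 measured fibroblast markers, 12 were higher in fibroblasts and 0 lower, and their mean on the log2 scale was 10.95 to 10.97 on fibroblast arrays, 6.89 to 7.45 on rPESC-2, 7.09 to 7.38 on ORMES-9 and 7.72 to 8.10 on ORMES-22 arrays. Of 12 measured pluripotency markers, 10 were lower and 1, NANOG (by 1.32 on the log2 scale, named after its value was seen), higher in fibroblasts. Among the lower ones was SOX2, at 3.79 ± 0.29 in fibroblasts against line means of 11.8 to 12.1. Array medians over all probe sets lay between 5.01 and 5.10. All values are log2 expression, group values are means ± SD over 3 arrays, and a gene was called at an adjusted p under 0.05 with a difference of at least 2-fold.

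HOX genes were higher in fibroblasts than in the ES lines, in every cluster. Of the 26 members, 13 were called higher in fibroblasts than the mean of the 3 ES lines and 0 were called lower (limma, Benjamini-Hochberg adjustment over all probe sets). Among all named genes 13.2% were called higher and 15% lower. The median difference over the members was 0.90, against -0.15 over all named genes. The 3 fibroblast arrays lay above all 9 ES arrays for 14 members, against 22.1% of named genes, and below them all for 2, HOXB1 and HOXC12, against 36.1% of named genes. The median of the 26 members was 5.75 to 5.87 on fibroblast arrays and 4.60 to 4.93 on ES arrays. In these bulk samples, fewer cells with a transcript and less of it per cell cannot be told apart.

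**Figure D1:**
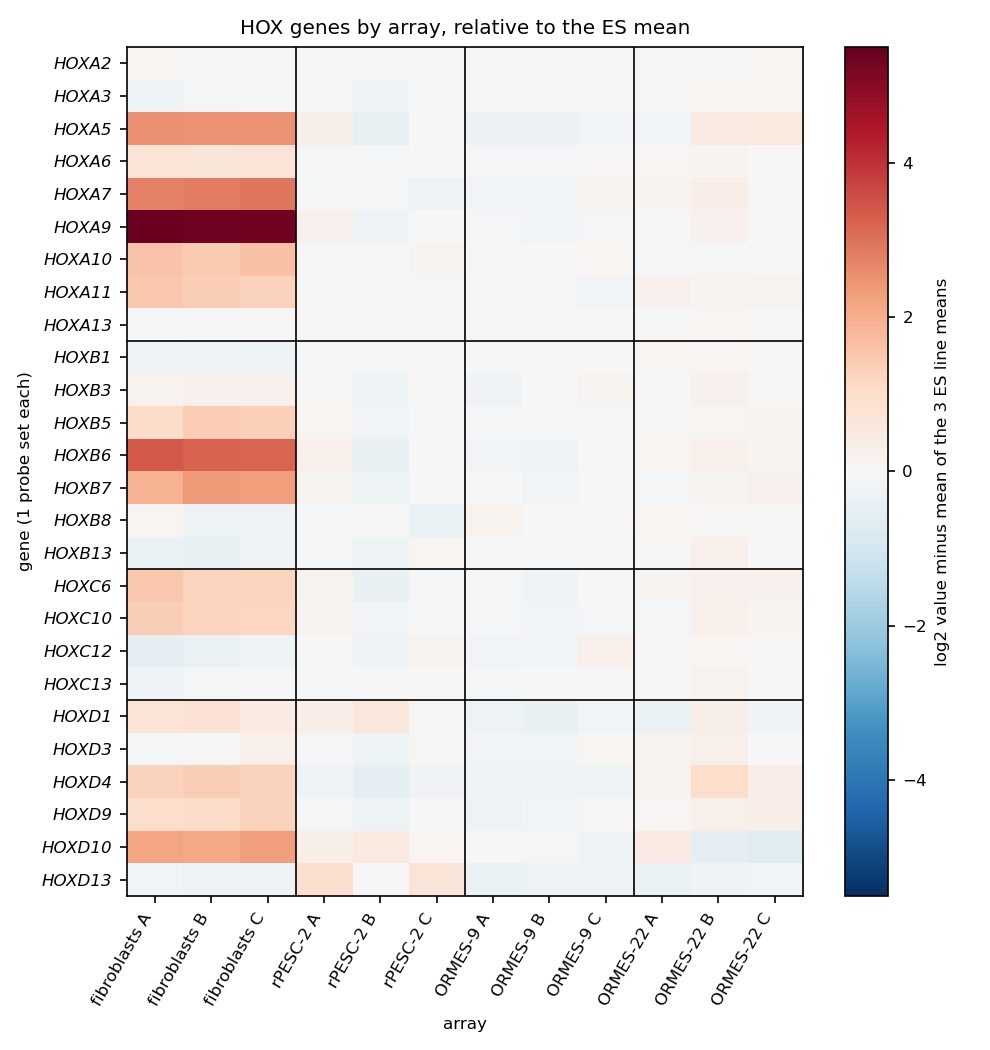
Each row is 1 HOX gene, in cluster and paralogue order, and each column 1 array. The colour gives the log2 value minus the mean of the 3 ES line means, and the redder cells in the 3 fibroblast columns lie from HOXA5 to HOXA11, HOXB5 to HOXB7, HOXC6 and HOXC10, and HOXD4 to HOXD10.

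The HOXA cluster held the member with the largest difference. HOXA9, known for its part in blood stem cells and in patterning the lower trunk and limbs, read 9.12, 9.07 and 8.9996 on the fibroblast arrays, against 3.94, 3.50 and 3.69 in rPESC-2, 3.65, 3.56 and 3.64 in ORMES-9, and 3.69, 3.92 and 3.73 in ORMES-22. All 9 ES values were under 4.26, the level that 90% of 42 bacterial control probe sets did not exceed, so only a bound can be given there, and HOXA9 was at least 28.0-fold higher in fibroblasts (adjusted p = 1.36e-13). HOXA9 was the 1 called member below that level on every ES array. All 13 called members were above it on every fibroblast array, and 10 were also above it on every ES array. By group mean, 21 of the 26 members were above it in fibroblasts, 20 in rPESC-2, 19 in ORMES-9 and 20 in ORMES-22. The shares of named genes above it were 85.4%, 86.9%, 87.3% and 87.8% in the same order.

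HOXA7 and HOXA5, which pattern the thorax and, for HOXA5 in mice, the developing lung, followed. HOXA7 read 7.37, 7.42 and 7.54 in fibroblasts, against 4.54, 4.48 and 4.30 in rPESC-2, 4.45, 4.42 and 4.79 in ORMES-9, and 4.74, 4.96 and 4.61 in ORMES-22, a 7.22-fold difference (log2 2.85, SE 0.10, adjusted p = 1.16e-10). HOXA5 read 7.07, 7.00 and 6.99 in fibroblasts, against 4.84, 4.11 and 4.57 in rPESC-2, 4.22, 4.21 and 4.40 in ORMES-9, and 4.41, 5.01 and 5.06 in ORMES-22, a 5.59-fold difference (log2 2.48, SE 0.15, adjusted p = 3.02e-08). Neither gene overlapped between fibroblasts and ES cells. The HOXA5 values of 4.11 in rPESC-2 and of 4.22 and 4.21 in ORMES-9 were under the control level of 4.26.

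HOXA10 and HOXA11 act in limb and uterus development. HOXA10 averaged 6.26 ± 0.09 in fibroblasts, against 4.77 ± 0.08 in rPESC-2, 4.73 ± 0.12 in ORMES-9 and 4.68 ± 0.09 in ORMES-22, a 2.90-fold difference. HOXA11 averaged 6.03 ± 0.10 in fibroblasts, against 4.61 ± 0.04 in rPESC-2, 4.54 ± 0.04 in ORMES-9 and 4.86 ± 0.03 in ORMES-22, a 2.57-fold difference. Both were called higher, so 5 of the 9 measured HOXA genes were. HOXA6, between HOXA5 and HOXA7, was above all ES arrays, at 5.63, 5.56 and 5.57 in fibroblasts against 4.77 to 5.03 over the ES arrays, but its 1.64-fold difference (adjusted p = 4.25e-07) was under the minimum for a call. By the chosen probe sets, the outer genes of the cluster did not pass the test. HOXA2, needed for the second pharyngeal arch, differed by 0.04 (log2), HOXA3, needed for the thymus, by -0.09 and HOXA13, which patterns digits and the hindgut, by -0.06. HOXA2 and HOXA13 were under the control level of 4.26 on all 12 arrays. The other HOXA3 probe set differed by 0.41 (limma, adjusted p = 0.000196), with all fibroblast arrays above all ES arrays. It did not reach 2-fold, and each of its group means was under the control level.

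In the HOXB cluster 3 of 7 measured genes were called higher, and they were neighbours in paralogue number. HOXB6 read 8.69, 8.55 and 8.54 in fibroblasts, against 5.59, 4.91 and 5.29 in rPESC-2, 5.20, 5.15 and 5.31 in ORMES-9, and 5.44, 5.62 and 5.47 in ORMES-22, a 9.60-fold difference (log2 3.26, SE 0.11, adjusted p = 1.22e-10). HOXB7 read 6.80, 7.23 and 7.15 in fibroblasts, against 5.04, 4.58 and 4.84 in rPESC-2, 4.87, 4.73 and 4.87 in ORMES-9, and 4.77, 5.04 and 5.12 in ORMES-22, a 4.55-fold difference (log2 2.19, SE 0.12, adjusted p = 6.66e-09). HOXB5, HOXB6 and HOXB7 are genes of the neck and thorax. HOXB5 averaged 6.04 ± 0.21 in fibroblasts, against 4.76 ± 0.14 in rPESC-2, 4.79 ± 0.07 in ORMES-9 and 4.88 ± 0.10 in ORMES-22, a 2.35-fold difference.

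HOXB8, the next gene by number, showed overlapping groups, with 5.43, 5.06 and 5.06 in fibroblasts and 4.98 to 5.52 over the ES arrays. The head-end genes HOXB1, which patterns the hindbrain, and HOXB3 differed by -0.24 and 0.22 (log2), at adjusted p = 0.00211 and 0.0413, and HOXB13, a tail-end gene known for its expression in prostate, by -0.34 at adjusted p = 0.00542. None of these 3 reached 2-fold. HOXB1 averaged 4.14 ± 0.05 in fibroblasts, near the control level.

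The HOXC cluster was the least covered, and 2 of its 4 measured genes were called higher. HOXC6, a gene of the upper thorax, read 7.89, 7.63 and 7.60 in fibroblasts, against 6.57, 5.98 and 6.33 in rPESC-2, 6.29, 6.18 and 6.36 in ORMES-9, and 6.53, 6.62 and 6.62 in ORMES-22, a 2.49-fold difference by this probe set (log2 1.32, SE 0.11, adjusted p = 4.12e-07). HOXC10, which in mice marks lumbar motor neurons and the hindlimb, read 5.61, 5.49 and 5.41 in fibroblasts against 4.08 to 4.53 over the ES arrays, a 2.39-fold difference. HOXC12 differed by -0.36 (log2) and HOXC13, a gene needed for hair and nails in mice, by -0.13. Both were below the control level in each group mean, HOXC13 at 3.98 ± 0.10 in fibroblasts and 4.07 to 4.18 in the line means.

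In the HOXD cluster 3 of 6 measured genes were called higher. HOXD10, a limb and lumbar spinal cord gene, read 9.46, 9.41 and 9.60 in fibroblasts, against 7.59, 7.79 and 7.37 in rPESC-2, 7.31, 7.18 and 7.10 in ORMES-9, and 7.75, 6.77 and 6.63 in ORMES-22, a 4.63-fold difference (log2 2.21, SE 0.19, adjusted p = 5.55e-07). The groups did not overlap, but the A array of ORMES-22 stood 1.04 (log2) above the mean of B and C for HOXD10, the 1 member with a gap of at least 2-fold on that array, against 3.66% of named genes. HOXD4, a gene of the hindbrain and neck, read 6.33, 6.42 and 6.32 in fibroblasts, against 4.87, 4.50 and 4.87 in rPESC-2, 4.81, 4.87 and 4.83 in ORMES-9, and 5.25, 6.03 and 5.43 in ORMES-22. Its difference from the mean of the lines was 2.47-fold, but it was 3.05-fold over rPESC-2, 2.87-fold over ORMES-9 and 1.73-fold over ORMES-22. HOXD9 averaged 6.88 ± 0.18 in fibroblasts, against 5.69 ± 0.17 in rPESC-2, 5.66 ± 0.19 in ORMES-9 and 6.03 ± 0.17 in ORMES-22, a 2.12-fold difference that was 1.80-fold over ORMES-22 alone. Against ORMES-22 alone HOXD4 and HOXD9 were therefore not called, which left 11 members, against 13.5% of named genes called higher in that comparison.

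HOXD1, the head-end member of its cluster, read 5.01, 5.08 and 4.71 in fibroblasts, against 4.66, 4.91 and 4.34 in rPESC-2, 3.99, 3.89 and 4.14 in ORMES-9, and 3.91, 4.60 and 4.10 in ORMES-22. Its fibroblast values overlapped those of rPESC-2, and the 1.57-fold difference from the mean of the lines (adjusted p = 0.00227) was not called. HOXD3 differed by 0.07 (log2) and HOXD13, which patterns digits, by -0.22. Other HOXD3 probe sets differed by 0.48 (limma, adjusted p = 0.000321) and 0.78 (adjusted p = 7.16e-05). The last of these had all fibroblast arrays above all ES arrays, but neither reached 2-fold.

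**Figure D2:**
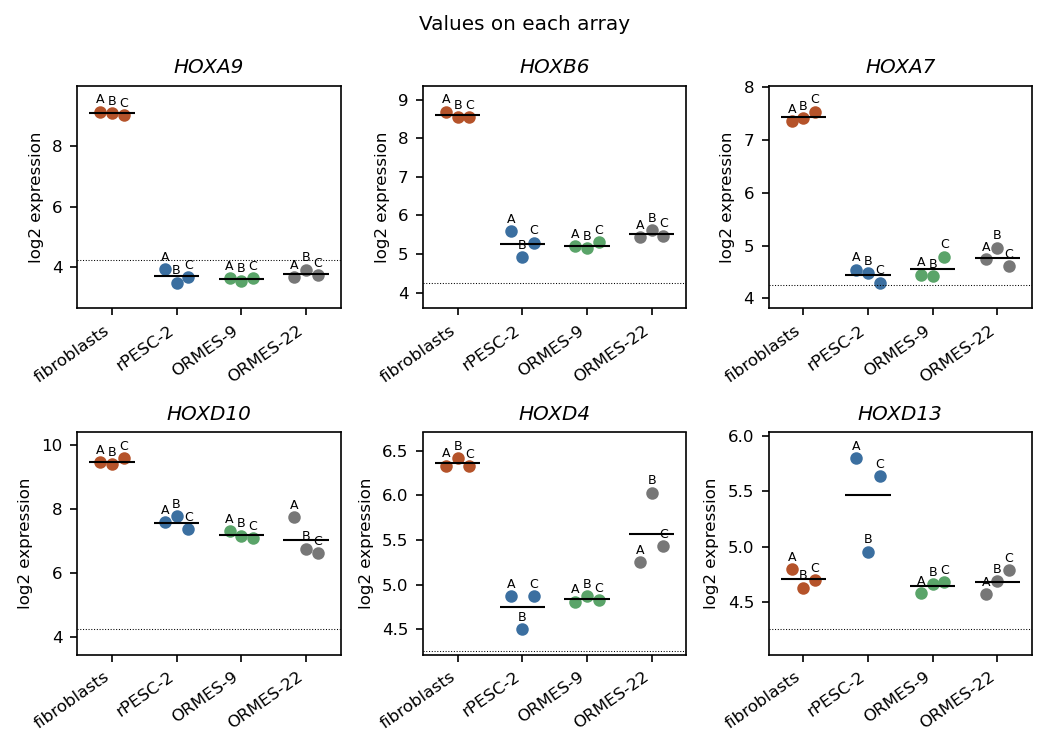
Log2 expression on each array for 6 HOX genes, with arrays lettered A to C, a black bar at each group mean and a dotted line at the control level of 4.26. HOXA9, HOXB6, HOXA7, HOXD10 and HOXD4 lie above all ES arrays in fibroblasts, and HOXD13 is highest in rPESC-2.

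Read by paralogue number, the genes that were higher in fibroblasts lay in the middle of the series. Of the members numbered 1 to 3, 0 of 6 were called, of those numbered 4 to 11, 13 of 15 were called, and of those numbered 12 and 13, 0 of 5. These bounds were set after the values were seen, so they describe the pattern and are not a test of it. Among the uncalled outer members, HOXA2, HOXA13, HOXC12 and HOXC13 were under the control level in every group mean, so a difference there could be missed. By the usual division of the clusters, 1 of 7 measured anterior genes (numbers 1 to 4), 6 of 8 central genes (5 to 8) and 6 of 11 posterior genes (9 to 13) were called. All 6 measured genes of groups 9 to 11 were called: HOXA9, HOXD9, HOXA10, HOXC10, HOXD10 and HOXA11. The 2 uncalled members in the middle were HOXA6 and HOXB8. By the chosen probe sets, the called differences started at 1.08 (HOXD9) and the largest uncalled one was 0.71 (HOXA6). Another HOXD3 probe set, also uncalled, differed by 0.78. The largest adjusted p of a called member was 3.93e-06 (HOXD4). Of the called members, 6 were at least 4-fold higher: HOXA9, HOXB6, HOXA7, HOXA5, HOXD10 and HOXB7.

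**Figure D3:**
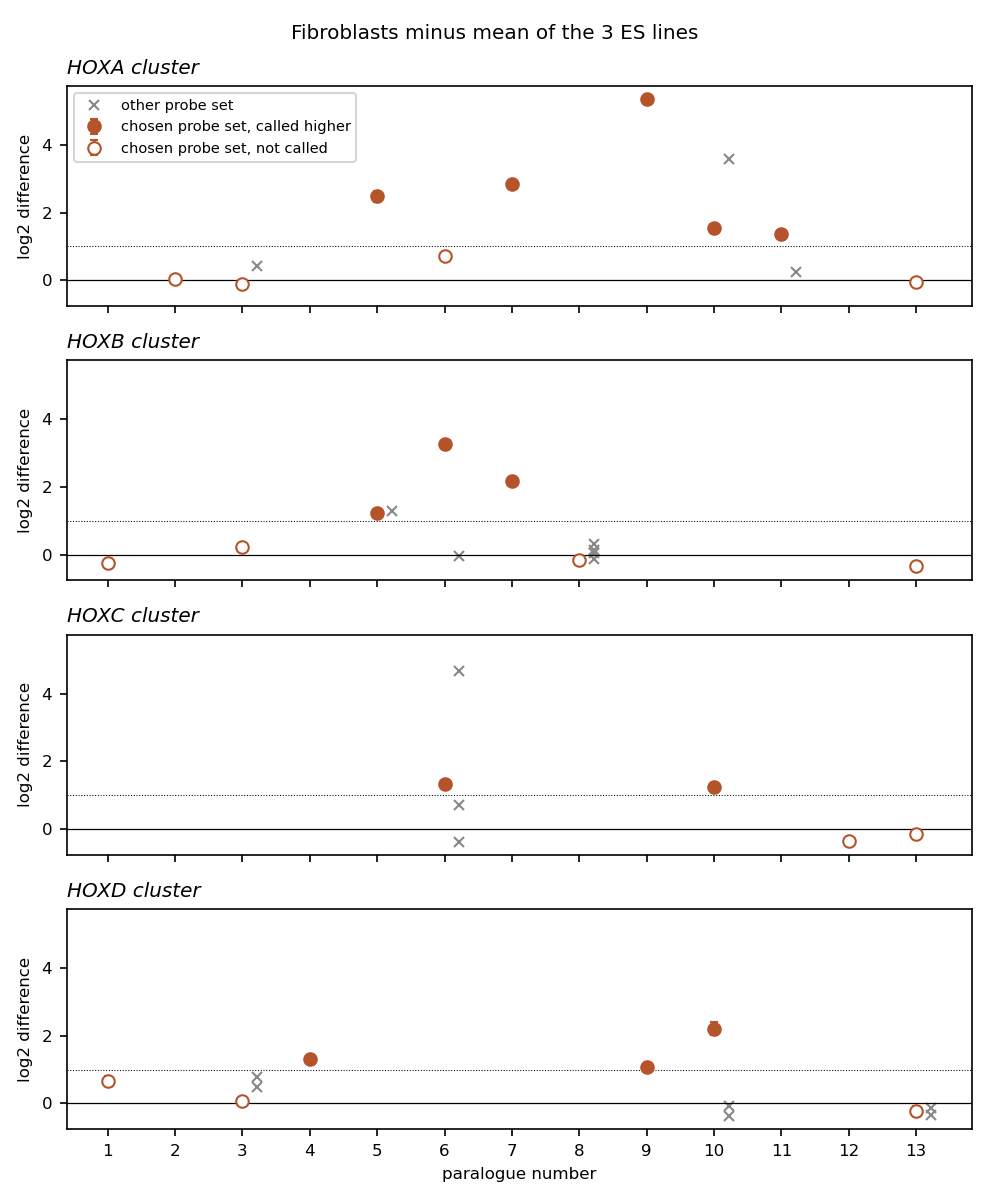
Log2 difference, fibroblasts minus the mean of the 3 ES lines, by paralogue number (1 to 13) in each cluster. Filled circles are called members, open circles uncalled ones, bars SE, crosses the other probe sets of the same gene, and the dotted line the 2-fold minimum, which no circle numbered 1 to 3 or 12 to 13 passes.

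The size of several differences depended on the probe set. Of the 44 HOX probe sets, 16 were called higher in fibroblasts and 0 lower. Of the 6 called members with several probe sets, HOXA10 and HOXB5 had every probe set called, and 9 of the 15 probe sets of these 6 genes were called. None of the 22 probe sets of uncalled members was. HOXC6 had 4 probe sets, and the chosen one had a mean over the 12 arrays of 6.72, against 6.69 for another that read 10.2, 10.1 and 10.2 in fibroblasts, against 4.97 to 5.95 over the ES arrays, a 25.6-fold difference. The remaining HOXC6 probe sets differed by 0.71 and -0.38 (log2). The other HOXA10 probe set read 7.40, 7.32 and 6.92 in fibroblasts, against 3.54 to 3.73 over the ES arrays, all under the control level, and was at least 7.77-fold higher. For HOXA11, HOXB6 and HOXD10 the other probe sets differed by 0.24, by -0.04, and by -0.37 and -0.09 (log2). The direction for HOXB6 and HOXD10 therefore rests on 1 probe set each, and for HOXA11 the call does. The 5 probe sets of HOXB8 ranged from -0.15 to 0.31.

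Genes beyond the tail end of the clusters, where the genes numbered 13 lie, were read beside the members, by taking the nearest measured protein-coding gene there in the gene table, a rule set after the values were seen. Of the 4 genes, 2 were called between fibroblasts and the ES lines, both higher in fibroblasts, against 13.2% of named genes called higher. LNPK, near HOXD13, averaged 6.51 ± 0.13 in fibroblasts against 4.30 to 4.59 in the line means, a 4.05-fold difference. TTLL6, beside HOXB13, averaged 7.35 ± 0.17 in fibroblasts, against 6.62 ± 0.18 in rPESC-2, 6.97 ± 0.40 in ORMES-9 and 4.52 ± 0.79 in ORMES-22, a 2.49-fold difference from the mean of the lines. Neither HOXD13 nor HOXB13 was called. The other genes differed by less than 2-fold: EVX1, a homeobox gene beside HOXA13, by -0.16 and CALCOCO1, beside HOXC13, by -0.55 (log2).

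HOX proteins bind DNA together with cofactors of the TALE homeodomain class, of which 6 of 9 listed genes were measured. MEIS2 averaged 8.15 ± 0.02 in fibroblasts, against 5.07 ± 0.65 in rPESC-2, 4.80 ± 0.09 in ORMES-9 and 5.27 ± 0.13 in ORMES-22, an 8.59-fold difference. MEIS1, the partner of HOXA9 in leukaemia, averaged 6.49 ± 0.06 in fibroblasts, against 4.04 ± 0.53 in rPESC-2, 3.78 ± 0.03 in ORMES-9 and 4.24 ± 0.24 in ORMES-22, line means under the control level with 3 of 9 ES arrays above it, and was at least 4.49-fold higher. PBX3 was 3.52-fold lower and PKNOX2 2.01-fold lower in fibroblasts. The cofactors thus split 2 higher and 2 lower, against 13.2% and 15% of named genes. Their median difference was -0.15, equal to that of all named genes to this rounding. The ParaHox, EVX and CDX genes, homeobox relatives and regulators of the clusters, gave 0 higher and 1 lower of 7 measured, with CDX4 at 4.25 ± 0.13 in fibroblasts against 5.24 to 5.95 in the line means.

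Polycomb complexes place the repressive marks that silence HOX genes, and trithorax group proteins oppose them. Of 18 measured Polycomb genes, 7 were lower in fibroblasts and 1 higher, against 15% and 13.2% of named genes. JARID2, which recruits the PRC2 complex, averaged 7.57 ± 0.09 in fibroblasts against 11.5 to 11.7 in the line means, a 16.1-fold difference. PCGF2 was 3.60-fold, KDM2B 3.15-fold, PCGF6 2.40-fold and CBX2 2.23-fold lower, and PHC3 was 2.40-fold higher. The median over the list was -0.29, against -0.15 over all named genes. Of 15 measured genes of the trithorax group and the H3K27 demethylases, 2 were higher and 5 lower in fibroblasts. The shares of named genes were 13.2% and 15%. MLLT3, a partner of the elongation machinery, was 4.61-fold and PSIP1, a chromatin tether of MLL, 3.18-fold higher. The histone methyltransferases DOT1L, KMT2D and KMT2A were 2.99-fold, 2.27-fold and 2.21-fold lower, and DPY30, a subunit of the KMT2 complexes, was 2.08-fold lower.

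Retinoic acid is a known inducer of the head-end HOX genes. Of 14 measured genes of its pathway, 4 were higher and 3 lower in fibroblasts, against 13.2% and 15% of named genes. ALDH1A3, an enzyme that makes retinoic acid, averaged 11.9 ± 0.08 in fibroblasts and was under the control level on all ES arrays, at least 201-fold higher. ALDH1A2, another such enzyme, was at least 3.97-fold higher and the receptor gene RARB 2.80-fold higher. CYP26A1, which degrades retinoic acid, averaged 4.50 ± 0.08 in fibroblasts against 10.1 to 10.6 in the line means, a 58.2-fold difference. The binding protein gene CRABP1 was 57.6-fold and the retinol uptake receptor gene STRA6 5.56-fold lower in fibroblasts. The measured HOX genes numbered 1 to 3 were not among those called at the 2-fold minimum. A link between this pathway and the HOX values was not tested.

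Other transcription factors that carry positional identity were read for comparison. Of 27 measured, 11 were higher in fibroblasts and 0 lower, against 13.2% and 15% of named genes, though their median difference was 0.03. PRRX1, a limb and craniofacial mesenchyme gene, averaged 10.7 ± 0.15 in fibroblasts against 4.09 to 4.23 in the line means, with 2 of 9 ES arrays above the control level, and was at least 87.0-fold higher. EMX2 was at least 24.3-fold, MSX1 18.0-fold, IRX5 9.53-fold, FOXF1 at least 6.37-fold and TBX3 7.13-fold higher. Of the 26 measured genes in the wider neighbourhood of the clusters, 6 were higher and 5 lower, against the same 13.2% and 15%. COPZ2 was 39.8-fold higher, and IGF2BP1 10.6-fold, JAZF1 4.88-fold, NFE2 3.34-fold and CBX1 3.31-fold lower, in fibroblasts. Among 13 measured markers of other skin cells (keratinocytes, melanocytes, endothelium) 1 was higher, PECAM1 by 2.59-fold, and 2 lower, TEK and VWF.

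**Figure D4:**
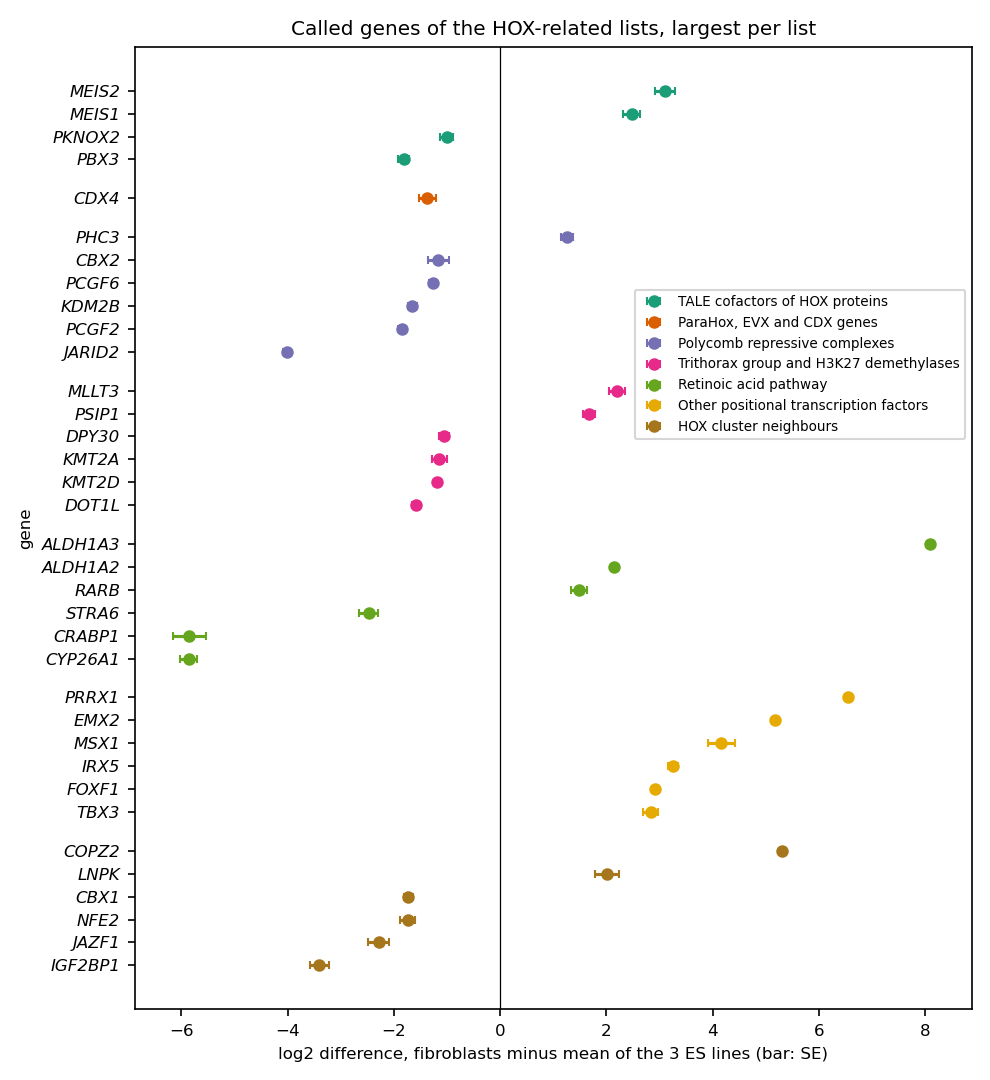
Log2 difference, fibroblasts minus the mean of the 3 ES lines, with SE, for up to 6 called genes in each list of HOX cofactors, regulators, relatives and neighbours. Most Polycomb genes shown lie left of 0, JARID2 at -4.01, and the positional transcription factors shown all lie right of 0, PRRX1 at a measured 6.56.

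Between the ES lines no HOX gene was called. For rPESC-2 set against ORMES-22, 0 of 26 members were called, against 1.7% of named genes in either direction, and 10 had an unadjusted p under 0.05, of which 3 were higher and 7 lower, against 26.2% of named genes. In ORMES-9 against ORMES-22, 0 were called, against 2.29% of named genes, and 5 had an unadjusted p under 0.05, all lower, against 24.5%. In ORMES-9 against rPESC-2, 0 were called, against 1.65%, and 2 had an unadjusted p under 0.05, both lower, against 21.8%. None of the 44 HOX probe sets was called in any of the 3 comparisons, and the largest gap between the means of any pair of lines was 0.82. At such background shares a count of 0 among 26 genes is close to the background.

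By the chosen probe sets, smaller differences at an adjusted p under 0.05 were found for HOXD4, HOXD13 and HOXA11. Another HOXD3 probe set differed from ORMES-22 by -0.44 (log2) in rPESC-2 (limma, adjusted p = 0.0286) and by -0.40 in ORMES-9 (adjusted p = 0.0373). HOXD4, whose array values are given above, was 1.77-fold lower in rPESC-2 than in ORMES-22 (log2 -0.82, SE 0.17, adjusted p = 0.0165) and 1.66-fold lower in ORMES-9 than in ORMES-22 (log2 -0.73, SE 0.17, adjusted p = 0.0228). Its 3 ORMES-22 arrays lay above the 6 arrays of the other lines, array B most. With 1 array left out, the HOXD4 differences ranged from -0.98 to -0.59 and from -0.89 to -0.50. Over all alternative analyses described below, their adjusted p in limma reached 0.164 and 0.142. HOXA11 read 4.58, 4.55 and 4.50 in ORMES-9 and 4.89, 4.84 and 4.85 in ORMES-22, a 1.25-fold difference (log2 -0.32, SE 0.07, adjusted p = 0.0176). The other HOXA11 probe set differed by -0.17 in that comparison (limma, adjusted p = 0.463).

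HOXD13 read 5.80, 4.96 and 5.64 in rPESC-2, against 4.57, 4.69 and 4.79 in ORMES-22, and was 1.72-fold higher in rPESC-2 (log2 0.78, SE 0.17, adjusted p = 0.0224). In ORMES-9 it read 4.58, 4.66 and 4.68, 1.77-fold lower than in rPESC-2 (log2 -0.82, SE 0.17, adjusted p = 0.0145). All 3 rPESC-2 arrays lay above all other arrays, fibroblasts included, and array B, from passage 10, was lower than A and C, both from passage 16. The part of passage in this was not tested. Without rPESC-2 array B the difference from ORMES-22 was 1.03 and that between ORMES-9 and rPESC-2 was -1.08, and each was then called. Leaving out another array reduced them to as little as 0.61 and -0.66. Over all alternative analyses described below, they fell to 0.37 and -0.39, and their adjusted p in limma reached 0.180 and 0.0577. The other 2 HOXD13 probe sets differed by 0.15 and 0.17 between rPESC-2 and ORMES-22.

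HOXD1 and HOXD10 had their highest ES means in rPESC-2 as well, at 4.64 ± 0.28 and 7.59 ± 0.21, but did not pass the adjusted test. In ORMES-9 they averaged 4.01 ± 0.13 and 7.20 ± 0.10, and in ORMES-22 4.20 ± 0.35 and 7.05 ± 0.61. All 6 measured HOXD genes had an unadjusted p under 0.05 between rPESC-2 and ORMES-22, as 26.2% of named genes did, with HOXD1, HOXD10 and HOXD13 higher and HOXD3, HOXD4 and HOXD9 lower in rPESC-2.

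Across the lines ORMES-22 had the highest mean for 21 of the 26 members, rPESC-2 for 4 and ORMES-9 for 1, while ORMES-22 was highest for 38.8% of named genes. The differences behind this order were small: the median over the members was -0.15 in rPESC-2 against ORMES-22 and -0.12 in ORMES-9 against ORMES-22, and -0.03 and -0.01 over all named genes. By array, the median value of the members was 4.75, 4.93 and 4.88 on ORMES-22 A, B and C. It was 4.64 to 4.81 on rPESC-2 arrays and 4.60 to 4.81 on ORMES-9 arrays. Only ORMES-22 B and C thus lay above the other lines, and A lay within their range. The array means of the fibroblast marker list, given above, were also highest in ORMES-22, where 3 of its 15 genes were called higher than in rPESC-2 and 1 than in ORMES-9. TWIST1 averaged 6.67 ± 0.50 in rPESC-2, 5.80 ± 0.43 in ORMES-9 and 8.47 ± 0.18 in ORMES-22, and was called lower in both of the parthenogenetic lines. LOX and COL6A3 were called lower in rPESC-2 than in ORMES-22, by 4.99-fold and 3.58-fold. The endoderm markers moved the other way, with 5 of 8 measured higher in rPESC-2 and 4 of 8 higher in ORMES-9 than in ORMES-22, SOX17 by 7.54-fold and 5.16-fold. Their array means were 7.59 to 7.84 in rPESC-2, 7.18 to 7.67 in ORMES-9 and 5.98 to 6.57 in ORMES-22. In rPESC-2 and ORMES-9 against ORMES-22, 1.7% and 2.29% of named genes were called in either direction. Whether the marker differences bear on the HOX values was not tested.

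**Figure D5:**
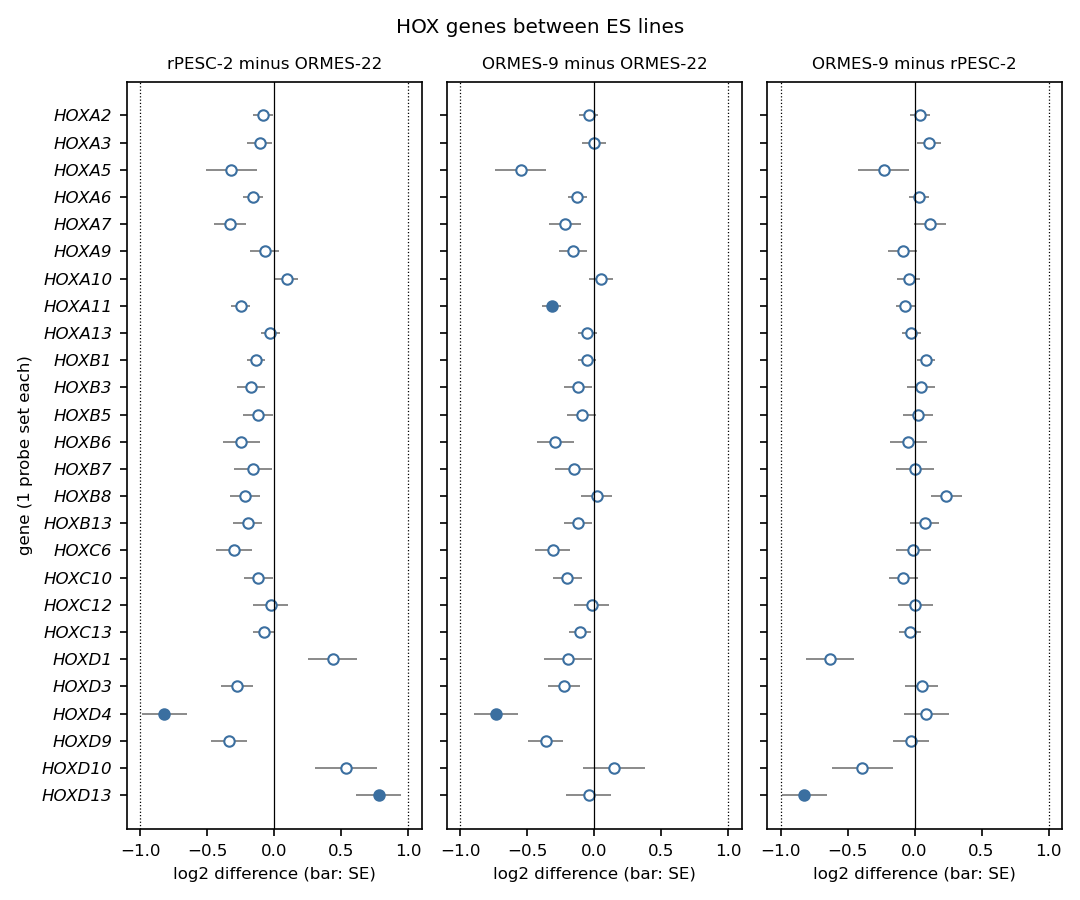
Log2 difference with SE for the 26 HOX genes in the 3 comparisons between ES lines. Filled circles have an adjusted p under 0.05 (HOXD4 and HOXD13, then HOXA11 and HOXD4, then HOXD13), dotted lines mark 2-fold, and no circle reaches them.

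Among the cofactors and regulators, few genes were called between ES lines. No TALE, Polycomb, ParaHox or other positional transcription factor gene on the lists was called in these comparisons. RBBP5, a core subunit of the MLL complexes, averaged 8.63 ± 0.26 in ORMES-9 against 7.40 ± 0.31 in ORMES-22 and was 2.34-fold higher. CRABP1 was 3.59-fold lower in ORMES-9 than in ORMES-22, and CRABP2 was 2.47-fold lower in ORMES-9 than in rPESC-2. Near the clusters, TTLL6 was 4.28-fold higher in rPESC-2 and 5.48-fold higher in ORMES-9 than in ORMES-22, in which it read 5.42, 4.17 and 3.96. HOXB13, next to TTLL6, differed by -0.20 and -0.12 (log2) in the same comparisons and was not called. JAZF1, beyond the HOXA cluster, was 2.58-fold higher in rPESC-2 than in ORMES-22 and 2.08-fold lower in ORMES-9 than in rPESC-2. GIP, an incretin hormone gene near the HOXB cluster, was 2.45-fold higher in ORMES-9 than in ORMES-22 and 2.46-fold higher than in rPESC-2.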

How the data were processed

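RNA of each of the 12 samples went onto its own Affymetrix rhesus array. The deposited table holds log2 expression values that the authors summarised with RMA, per the submitters' processing notes (version not given in the sources used here). The log base is judged from their range. RMA makes arrays alike in distribution, so changes shared by most genes are reduced and those near background understated. The number of arrays limits the precision.

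Control features (99 of 52865) were left out. Names came from the platform annotation (24956 probe sets with 1 symbol, 361 with several, 27449 with none). Only probe sets with 1 symbol were named, less 1691 with provisional symbols. The gene table of T2T-MMU8v2.0, not the build of the array, served for HOX gene names and for which genes neighbour each other. limma 3.58.1 in R 4.3.3 was fitted to all probe sets and 12 arrays with group means and no covariate (8 residual degrees of freedom) and tested on simulated data. P-values are two-sided and adjusted over 52766 probe sets.

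The members and lists were chosen with earlier results of these data known. Named were every member and, per list, up to 6 called genes with the largest difference or, with none called, the largest 2. Replicate letters did not pair the samples: same-letter deviations correlated at -0.31 to 0.26 and 6 of 18 exceeded 0.1. Alternatives concerned the minimum difference, normalisation, dim probe sets, moderation, the probe set per gene, the ES line compared, the letter as a block and each array left out.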

Additional observations from a re-analysis of the deposited data

Results flagged for a closer look

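HOXD13 stood out because its difference from ORMES-22 was not the same in the parthenogenetic lines: it was -0.04 (log2) in ORMES-9 and 0.78 in rPESC-2, and the difference between these, tested directly as ORMES-9 minus rPESC-2, was -0.82 (limma, adjusted p = 0.0145 over all probe sets). All 3 rPESC-2 arrays were above all 3 ORMES-9 arrays. The 2 other HOXD13 probe sets gave -0.19 and -0.14 for the same comparison.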

How the results depend on the processing

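The 13 members called higher in fibroblasts became 6 at a 3-fold minimum (HOXA10, HOXA11, HOXB5, HOXC6, HOXC10, HOXD4 and HOXD9 lost), 11 with the mean of a gene's probe sets (HOXA11 0.80 and HOXD10 0.58 lost, HOXB6 1.61 kept), 11 against ORMES-22 alone (HOXD4 0.79, HOXD9 0.85), and 19 with no minimum, 16 higher and 3 lower, against 71.2% of named genes. Leaving out 1 array gave 12 to 13, HOXD9 falling to 0.98 without fibroblasts replicate C. With the probe set of largest SD the count was 13, but HOXC6 differed by 4.68 and HOXA10, under the control level on all ES arrays, by at least 2.96 (measured 3.57). Between ES lines, counts of 0 became 2, 2 and 1 with no minimum for rPESC-2 against ORMES-22, ORMES-9 against ORMES-22 and ORMES-9 against rPESC-2, against 6.74%, 8.60% and 7.72% of named genes. Leaving out 1 array gave 0 to 1, 0 and 0 to 1, the 1 being HOXD13 without rPESC-2 replicate B, at 1.03 and -1.08. With the replicate letter as a block the counts were 13, 0, 0 and 0, and the letters did not pair the samples. Other normalisations, trended and robust moderation, 1 probe set per gene and dim probe sets left out (22 members tested) gave the same counts, as did, for ES lines, fits of the compared groups alone or, chosen after seeing the data, of the 9 ES arrays. For fibroblasts the compared groups are all arrays, so that fit was not repeated. No called member changed sign under these alternatives, though HOXB6 (-0.04), HOXC6 (-0.38) and HOXD10 (-0.37) had another probe set below 0. Uncalled members near 0 by the chosen probe set could: HOXD3 was at -0.10 against ORMES-22 alone, HOXD13 at 0.07 against ORMES-9 alone and HOXA3 at 0.41 by its other probe set. Signal near the control level limits HOXA2, HOXA13, HOXC12 and HOXC13, and differences there may be understated. Among the called members it limits HOXA5, HOXA9 and HOXC10 on ES arrays.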
